A study of Mus musculus with 3 samples.

Results

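Cells with RNA of the transcription factor Nkx2-1 and of Trp63 were taken from single-cell RNA sequencing of tdTomato+ mouse larynx cells. Airway basal cells was the label proposed for them. A cell was kept with at least 1 unique molecular identifier (UMI, 1 counted RNA molecule) of Nkx2-1 and of Trp63, none of Tmprss11a, and fewer than 20 UMIs of Scgb3a2 per 10000 of its own UMIs. Each cell also had 500 to 8000 genes, between 1000 and 40000 UMIs and no more than 8% of them mitochondrial, and 8360 barcodes with UMIs of all of Krt5, Ltf, Scgb3a1 and Dcn were left out as mixed. These limits left 4649 Nkx2-1+ Trp63+ cells (1257, 837 and 2555 in libraries 1, 2 and 3), or 17.2% of the 27045 cells with a Trp63 UMI, out of 60530 barcodes in all. They were compared with 11114 cells (2225, 2124 and 6765) that had UMIs of Trp63 and Tmprss11a and none of Nkx2-1, called Tmprss11a+ Trp63+ cells here. The Scgb3a2 limit was not applied to this second group. Since the groups were chosen by genes read in the same cells, the genes of the rule (Nkx2-1, Trp63, Tmprss11a, Scgb3a2, Krt5, Ltf, Scgb3a1 and Dcn) and the proposed markers Gfra1 and Cadm2 are given as a description. Only the genes of the rule were left out of the tests, so lists that hold Gfra1 or Cadm2 count them among the genes tested. Genes expressed together with a rule gene, such as squamous genes with Tmprss11a or airway secretory genes with Scgb3a2, follow that choice in part.

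All cells came from Lrig1CreERT2/+; ROSA26CAG-LSL-tdTomato/+ mice on a C57BL/6J background. Tamoxifen was given on 2 consecutive days, and tissue was taken 24 hours after recombination. Larynges of 5 males and 5 females were pooled for each library, so the library was the replicate (n = 3) and both groups of cells shared their animals; the age of the mice is not given in the sources used here. Cre was driven from Lrig1, so the sort was meant to leave out cells without Lrig1 activity at the time of tamoxifen. WT and ROSA26CAG-LSL-tdTomato/+ mice served to set the sort gates, and the sort could not be read from the counts, which hold no feature for tdTomato or Cre.

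The laryngeal lining joins an airway epithelium with a squamous epithelium like that of the mouth and pharynx, and both rest on basal cells that express p63, the product of Trp63. Nkx2-1 (chromosome 12, 56578742 to 56583722, reverse strand, GRCm39) is a homeobox factor that specifies the lung, trachea and thyroid from the ventral foregut and stays on in airway epithelium. Tmprss11a encodes a membrane serine protease of squamous epithelia, and Scgb3a2 a secretoglobin of airway secretory cells. GFRA1 is the co-receptor through which GDNF signals to RET, and CADM2 is a cell adhesion molecule best known from synapses.

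The libraries held 147898790 to 413632222 UMIs. The Nkx2-1+ Trp63+ cells had median depths of 13437, 16649 and 12546 UMIs, below the 15192, 19249.5 and 16114 of the Tmprss11a+ Trp63+ cells. Shares of cells were therefore also read with cells thinned to 5000 UMIs. Cells with fewer UMIs were left out of the thinned shares, which kept 1106, 794 and 2283 Nkx2-1+ Trp63+ cells and 1931, 2039 and 6194 Tmprss11a+ Trp63+ cells. Barcodes that resembled simulated doublets made up 7.48, 3.94 and 11.3% of Nkx2-1+ Trp63+ cells and 7.28, 3.48 and 11.5% of Tmprss11a+ Trp63+ cells. Pairs of libraries shared 46 to 165 barcodes, and at most 3 of a pair's shared barcodes were Nkx2-1+ Trp63+ cells.

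Nkx2-1+ Trp63+ cells made up 19.8% (95% Wilson interval 18.8 to 20.8), 17.5% (16.5 to 18.6) and 16.0% (15.5 to 16.6) of the Trp63+ cells of libraries 1, 2 and 3. The intervals cover counting error only. In 46.7, 41.8 and 35.3% of them the call rested on a single Nkx2-1 UMI, and 15.7, 8.24 and 11.2% held a single Trp63 UMI. Cells that should lack Nkx2-1 were fibroblasts, satellite cells, endothelial cells and macrophages by pairs of their markers, without a UMI of Epcam, Krt5, Krt8 or Trp63. Among them 2.43, 1.39 and 1.78% had an Nkx2-1 UMI, at median depths of 9303, 9100 and 7216.5 UMIs. Cells with those epithelial UMIs were left out, so these shares can understate free RNA. At the other limit, 93, 50 and 311 members lay just inside the Scgb3a2 rule, with 10 to 20 UMIs per 10000, and 84, 32 and 236 cells just outside it, with 20 to 40. Gfra1 stood at 362, 226 and 187 counts per 1000000 UMIs of the summed cells (CPM) in the former and 267, 192 and 160 in the latter.

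The label of airway basal cells was read against its markers first. Krt5, the type II keratin of basal cells, was detected in 83.5, 85.1 and 96.5% of Nkx2-1+ Trp63+ cells and stood at 611, 592 and 1365 CPM, against 1314, 1049 and 2037.5 CPM in Tmprss11a+ Trp63+ cells. Trp63 was at 694, 684 and 795 CPM against 750, 637 and 796 CPM, so its ranges overlapped. Gfra1 (chromosome 19, 58223212 to 58444346, reverse strand, GRCm39) was at 466, 461 and 292 CPM in Nkx2-1+ Trp63+ cells and 53.6, 30.5 and 18.1 CPM in Tmprss11a+ Trp63+ cells. Every library of the first group lay above every library of the second. Thinned to 5000 UMIs, Gfra1 was detected in 72.1, 74.9 and 63.4% of the first and 12.3, 6.96 and 6.68% of the second. Without thinning, 27.2, 51.3 and 38.1% of the cells that should lack Nkx2-1 had a Gfra1 UMI, and 17.0, 5.83 and 11.1% of them a UMI of the airway gene Scgb3a2. Free RNA and expression were not told apart there. Cadm2 (chromosome 16, 66451872 to 67417816, reverse strand) was at 167, 150 and 200 CPM against 38.4, 20.1 and 17.4 CPM, again without overlap, but only 38.7, 40.4 and 42.0% of Nkx2-1+ Trp63+ cells had a UMI of it. Of the proposed markers outside the rule, Gfra1 was thus found in most of the cells and Cadm2 in a minority. Cadm2 did not separate them from the Nkx2-1+ Trp63+ cells at or above the Scgb3a2 limit, where it stood at 293, 214 and 133 CPM. Trp63 was required by the rule and is no check of the basal label. Its background was not read, since the cells that should lack Nkx2-1 were chosen without a Trp63 UMI.

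**Figure D1:**
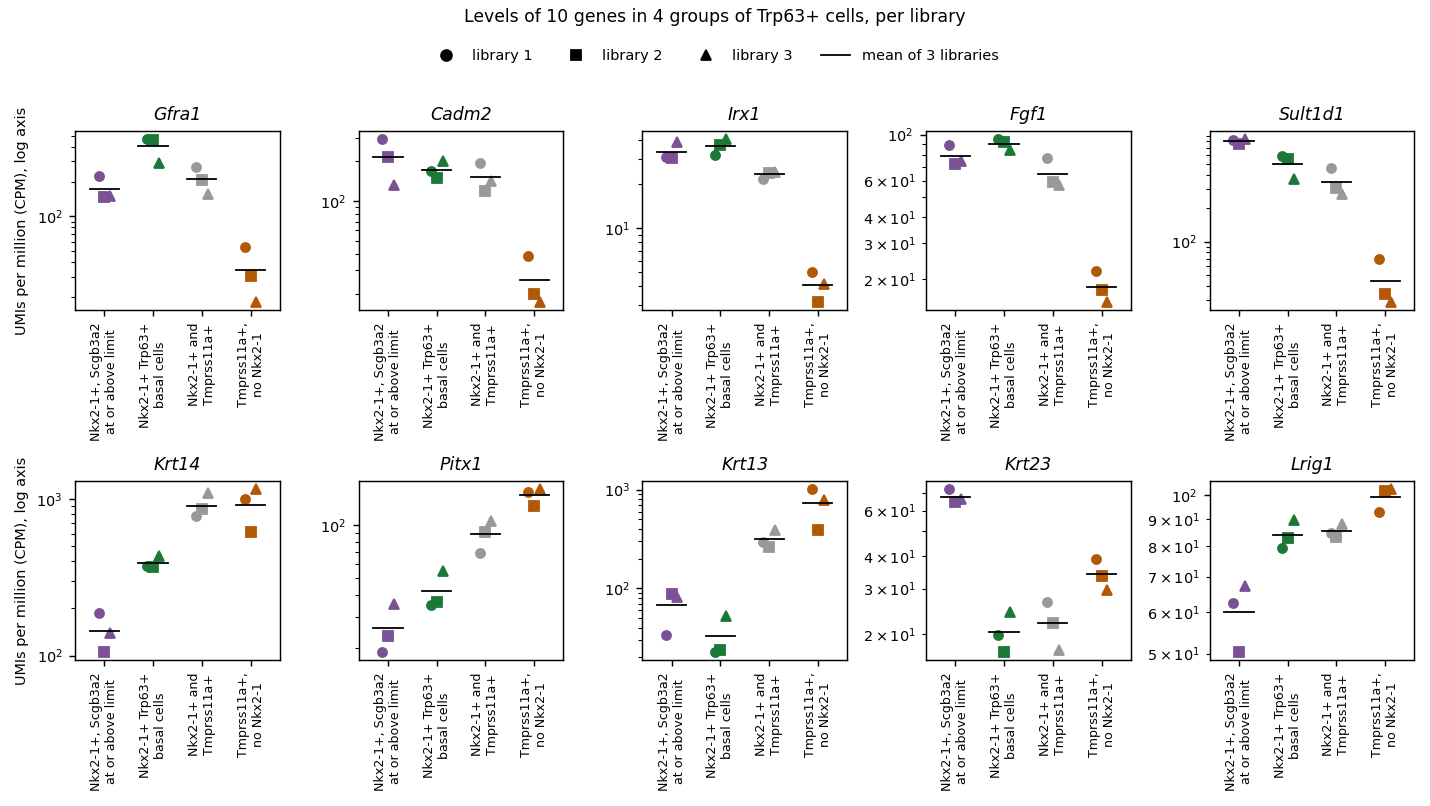
Summed level of 10 genes (CPM, log axis) in 4 groups of Trp63+ cells, with 1 point per library and a bar at the mean of the 3 libraries. Gfra1, Cadm2, Irx1, Fgf1 and Sult1d1 are higher in Nkx2-1+ Trp63+ cells than in Tmprss11a+ Trp63+ cells in every library, Krt14, Pitx1, Krt13 and Krt23 are lower, and so is Lrig1, by less.

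Some cells with markers of other types met the rule. Cells with 3 or more genes of another type's marker list numbered 307 (6.60%), or 104, 49 and 154 in libraries 1, 2 and 3. Among them 95 had ciliated, 90 fibroblast, 42 thyroid follicle, 33 muscle satellite, 32 gland acinar and 6 neuroendocrine genes. In library 2, 15 cells with gland acinar genes held 98.6% of the group's UMIs of that list. The list stood at 1506 CPM there, against 125 and 107 CPM in libraries 1 and 3. Fibroblast-marked cells were 2.07, 0.239 and 2.43% of Nkx2-1+ Trp63+ cells and 2.56, 0.424 and 2.84% of Tmprss11a+ Trp63+ cells. The 42 thyroid-type cells were 0.903% of the group, yet they held 99.6, 99.7 and 98.4% of its Tg (thyroglobulin) UMIs. Tg stood at 29909, 38955 and 22171 CPM in them and at 3.86, 2.83 and 1.03 CPM in the rest. The comparison was therefore also run without cells that had any UMI of a set of genes of other types. This removed 1464 Nkx2-1+ Trp63+ cells (31.5%), or 32.9, 27.0 and 32.3% per library, against 24.1, 16.2 and 24.3% of Tmprss11a+ Trp63+ cells. Pax7 was in the set, and 155, 103 and 372 of the Nkx2-1+ Trp63+ cells removed had a UMI of it. A single UMI does not show that a cell was of another type. The run is named below as the comparison without other-type cells.

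The marker lists of other types moved with the group. In the comparison with Tmprss11a+ Trp63+ cells, all 8 ciliated genes, 4 of 7 thyroid genes and 5 of 8 neuroendocrine genes tested were higher in Nkx2-1+ Trp63+ cells. These are 100, 57.1 and 62.5%, against 11.1% over all genes, and 1 thyroid gene was lower. Without other-type cells none of the 7 ciliated, 2 thyroid and 2 neuroendocrine genes still tested was higher, although 2 ciliated genes were under the block. Both thyroid genes and 1 of the neuroendocrine genes were lower. Cells had been removed for UMIs of other types' genes, so the loss of these rises was set in part by the removal and is no test. No fibroblast gene (of 7) or macrophage gene (of 6) passed in either direction. The lists of gland acinar, tuft, and Schwann or neuronal genes each kept 1 higher gene without other-type cells, of 5, 3 and 3 tested. These are 20, 33.3 and 33.3%, against 1442 higher of 15260 over all genes in that run.

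The first question was which genes separate Nkx2-1+ Trp63+ from Tmprss11a+ Trp63+ cells. The sums of each group's UMIs in each library were compared by edgeR's quasi-likelihood test, with Benjamini-Hochberg adjusted p under 0.05 as the threshold. Of 16617 genes tested, 1837 (11.1%) were higher and 1489 (8.96%) lower in Nkx2-1+ Trp63+ cells, and the median log2 fold change over all genes was 0.00. With the library as a replicate block, 3495 (21%) were higher and 3653 (22%) lower, and these included all 3326 genes called without it. Without other-type cells 1442 were higher and 1346 lower of 15260 tested, or 2964 and 3247 with the block. Without library 1, 2 or 3 the count of calls was 514, 1310 and 2361, and with the block 5366, 5983 and 5438.

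Of the 12 largest rises, 11 are described, and thyroid genes came first among them. Pax8, a paired-box factor of the thyroid, was at 17.8, 14.6 and 3.11 CPM against 0.200, 0.146 and 0.133 CPM (log2 fold change 6.2, SE 0.77, adjusted p = 0.00318). Pax8, Iyd, Prlr, Tg, Ecrg4, Napsa, Cxcl13 and Calca had more than 75% of their UMIs in cells with 3 or more genes of another type in every library. In the other 3 genes, Mab21l2, Cntn5 and Gp2, that share was under 25%. Mab21l2 (chromosome 3, 86452888 to 86455590, GRCm39), a developmental regulator of the male-abnormal-21 family, was at 16.8, 19.7 and 24.0 CPM against 0.744, 0.365 and 0.726 CPM. The groups lay far apart in each library, and the log2 fold change was 4.96 (SE 0.29, adjusted p = 0.000345). Cntn5, a contactin of neuronal contacts, was at 32.0, 11.9 and 17.8 CPM against 0.945, 0.219 and 0.806 CPM (4.89, SE 0.57, adjusted p = 0.00255). Its lowest Nkx2-1+ Trp63+ library lay above all those of the other group. Without other-type cells, and chosen by the same rule after those values were seen, the 12 largest rises were Mab21l2 (4.99), Gp2 (4.93), Dclk1 (4.86), Cntn5 (4.67), Hp (4.30), Rorb (4.03), Tff2 (4.0), Cd200 (3.92), Akr1c14 (3.91), Cp (3.90), Sult1d1 (3.81) and Itgb8 (3.79). The removal of cells with thyroid genes left few of those genes to test. Gp2 was carried by few cells, with UMIs in 2.15, 1.43 and 1.60% of Nkx2-1+ Trp63+ cells against 1.75, 0.942 and 1.35%. Tff2, a trefoil peptide of mucous cells, was at 157, 138 and 88.5 CPM against 17.0, 7.34 and 13.2 CPM, yet after thinning it was detected in like shares of cells, 9.31, 2.90 and 4.20% against 7.66, 2.21 and 4.81%.

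The 12 largest falls were Lypd8l, Chit1, Ces1h, Krt13, Cd5, Gpnmb, Atp6v0a4, Lgals7, Tmem213, Krt6a, Grm8 and Sprr2a3, with log2 fold changes of -5.36 to -3.72. Krt13 (chromosome 11, 100008153 to 100012392), a keratin of the suprabasal layers of moist squamous epithelium, was at 22.7, 23.5 and 52.3 CPM in Nkx2-1+ Trp63+ cells and at 1010, 391 and 793 CPM in Tmprss11a+ Trp63+ cells (log2 fold change -4.53, SE 0.48, adjusted p = 0.00191). Even the lowest library of the second group stood several fold above the highest of the first. Krt6a, a keratin of wounded and stratified epithelium, was at 15.3, 8.06 and 21.2 CPM against 241, 96.4 and 338 CPM (-3.96, SE 0.53, adjusted p = 0.00414). Grm8, a metabotropic glutamate receptor, had the steadiest values of the 12, at 8.14, 9.55 and 10.98 CPM against 136, 136 and 147 CPM (-3.91, SE 0.12, adjusted p = 7.18e-05).

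**Figure D2:**
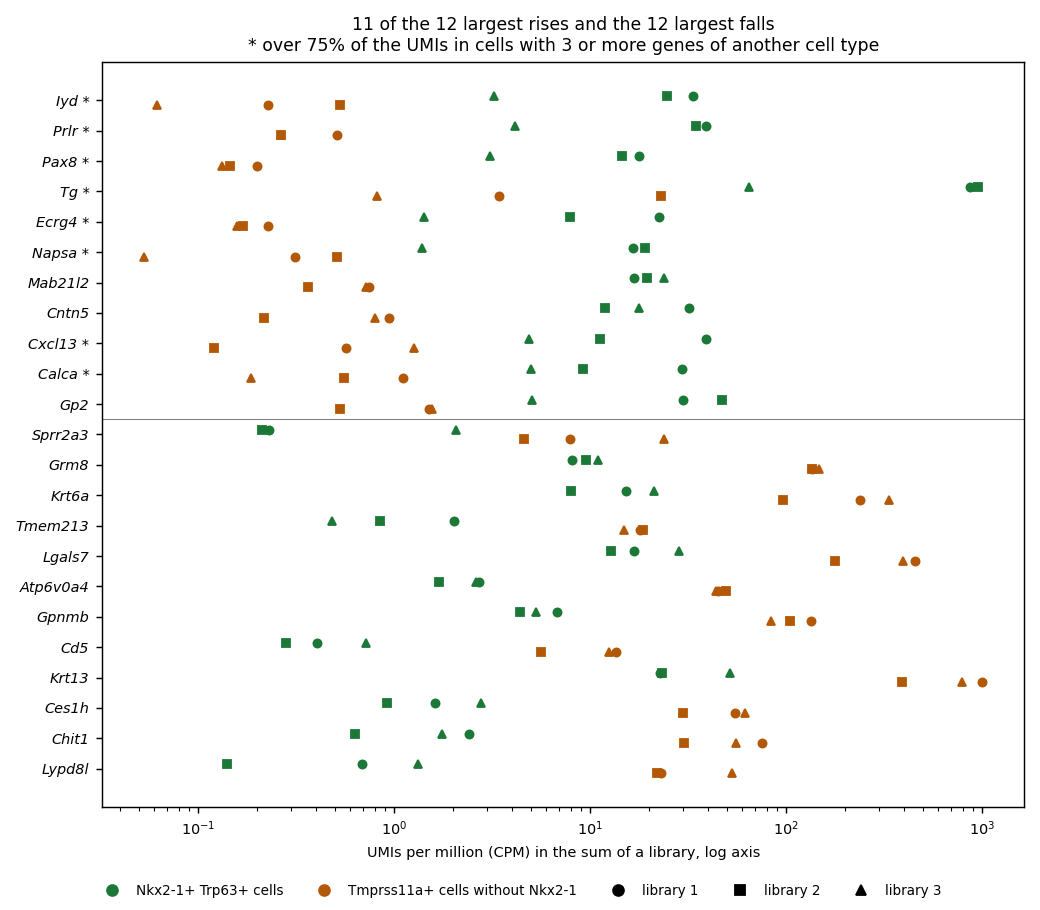
Levels of 11 of the 12 genes raised most and of the 12 lowered most in Nkx2-1+ Trp63+ cells against Tmprss11a+ Trp63+ cells (CPM, log axis), with 1 point per library and group. Stars mark rises with over 75% of their UMIs in cells with 3 or more genes of another cell type, which leaves Mab21l2, Cntn5 and Gp2 unstarred.

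Of 28 foregut and airway transcription factors tested, 10 were higher (35.7%, against 11.1% over all genes), 3 lower (10.7%, against 8.96%) and 15 passed in neither direction (median log2 fold change 0.08). Under the replicate block 13 were higher and 5 lower (46.4 and 17.9%, against 21 and 22%). Irx1 (chromosome 13, 72106040 to 72111848), an Iroquois factor of the developing airway, was at 32.0, 37.3 and 40.9 CPM against 4.98, 3.14 and 4.15 CPM (log2 fold change 3.12, SE 0.19, adjusted p = 0.000357). All libraries of the first group lay above those of the second. Its neighbour Irx2 was at 75.6, 82.4 and 85.6 CPM against 20.5, 19.7 and 20.1 CPM (1.96, SE 0.07, adjusted p = 0.000109). Gata6 (2.49), an endoderm factor, and Sox9 (1.66), a factor of distal lung and of submucosal gland progenitors, were higher too. Both were low, at 10.96 to 32.2 CPM in Nkx2-1+ Trp63+ cells. The lower ones were Id2 (-1.40), Elf3 (-0.54) and Foxp1 (-0.51). Sox2, the factor of proximal airway and oesophagus, was at 280, 292 and 387 CPM against 292, 330 and 365 CPM, and its log2 fold change of -0.09 (SE 0.14, adjusted p = 0.683) did not pass.

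Transcription factors of oral and squamous epithelium differed in 1 direction. Of 29 tested, 16 were lower (55.2%, against 8.96% over all genes) and none was higher (against 11.1%), with 13 that did not pass (median -0.66). Under the block 22 were lower (75.9%, against 22%) and none was higher (against 21%). Pitx1, a homeobox factor of the oral ectoderm and hindlimb, was at 35.1, 36.4 and 54.6 CPM in Nkx2-1+ Trp63+ cells against 152, 128 and 159 CPM (log2 fold change -1.85, SE 0.17, adjusted p = 0.00126). Gata3 was at 4.38, 4.88 and 5.68 CPM against 31.3, 30.7 and 38.0 CPM (-2.79, SE 0.14, adjusted p = 0.000186), and Sox15 fell by 2.01 on the log2 scale. None of these 3 overlapped between the groups. Without other-type cells 16 of 26 were lower (61.5%) and none was higher.

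Basal cell genes leaned lower. Of 22 tested, 3 were higher, near the 11.1% over all genes, and 6 lower, against 8.96% over all genes, with a median of -0.21. With the replicate block 4 were higher and 12 lower (18.2 and 54.5%, against 21 and 22% over all genes). Krt14, the type I partner of Krt5, was at 373, 366 and 434 CPM against 994, 618 and 1156 CPM (log2 fold change -1.29, SE 0.22, adjusted p = 0.00893). Krt17 (-1.83), another basal and wound keratin, and Col17a1 (-1.09), a hemidesmosome collagen, were lower without overlap as well. Krt15, a keratin of stem-like basal cells, was at 1932, 1841 and 4100 CPM against 4765, 4480 and 6879 CPM. Its log2 fold change of -1.10 (SE 0.32) gave an adjusted p of 0.0540 without the block and 0.000237 with it. Cav1 (1.04), the coat protein of caveolae, Pdpn (0.60), a surface glycoprotein of basal cells, and Lamb3 (0.34), a laminin-332 chain, were higher. Pdpn was at 340, 331 and 407 CPM against 231, 215 and 240 CPM.

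Squamous differentiation genes build the cornified envelope and the suprabasal keratin network. Of 37 tested, 29 were lower (78.4%, against 8.96% over all genes) and none was higher (median -2.39). Under the block 32 were lower (86.5%, against 22%), and without other-type cells 28 (75.7%). The second group was chosen by Tmprss11a, a protease of squamous epithelia, so these falls follow in part from the choice of cells. Krt4, the suprabasal partner of Krt13, was at 107, 94.6 and 143 CPM against 686, 430 and 668 CPM (log2 fold change -2.43, SE 0.22, adjusted p = 0.0012). Of 10 desmosome genes, which anchor keratin filaments between cells, 8 were lower (80%, against 8.96% over all genes). Dsg2 (0.45) alone was higher (10%, against 11.1%). Under the block 2 were higher and 8 lower (20 and 80%, against 21 and 22%). Dsg3 was at 72.8, 64.8 and 74.1 CPM against 198, 198 and 174 CPM (-1.48, SE 0.09, adjusted p = 0.000357). Dsg2, the desmoglein of simple epithelia, was at 118, 119 and 121 CPM against 88.3, 84.7 and 79.8 CPM. The desmogleins thus lay on opposite sides, and neither overlapped between groups.

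Of 5 keratins of simple epithelium tested, Krt18 was higher, at 253, 339 and 209 CPM against 113, 122 and 93.3 CPM (log2 fold change 1.24, SE 0.21, adjusted p = 0.00884), and Krt23 was lower (-0.78). That is 20% each way, against 11.1 and 8.96% over all genes. The block gave 2 higher and 2 lower (40% each way, against 21 and 22%). Krt8, the partner of Krt18, did not pass (-0.22, adjusted p = 0.223 without and 0.0185 with the block). Krt19 was at 465, 450 and 584 CPM against 392, 331 and 372 CPM, with an adjusted p of 0.0501 without and 0.00577 with the block. Of 36 genes of the S, G2 and M phases, 17 were lower (47.2%, against 8.96% over all genes) and none higher (median -1.94). Under the block 30 were lower (83.3%, against 22%). Without other-type cells the median was -1.53, with 7 lower (19.4%), or 31 under the block (86.1%). Mki67, the proliferation antigen, was at 5.14, 2.48 and 6.2 CPM against 36.6, 11.6 and 55.0 CPM (-2.92, SE 0.58, adjusted p = 0.0154). The replication factor Pcna, at 33.5, 42.3 and 38.8 CPM against 41.7, 43.1 and 56.8 CPM, did not pass (-0.35, adjusted p = 0.139; 0.0353 with the block).

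Airway secretory genes were higher in 16 (42.1%, against 11.1% over all genes) and lower in 5 (13.2%, against 8.96%) of 38 tested, with a median of 0.40. Under the block 21 were higher and 6 lower (55.3 and 15.8%, against 21 and 22%). Sult1d1, a sulfotransferase, was at 590, 557 and 365 CPM against 70.2, 34.1 and 28.7 CPM (log2 fold change 3.46, SE 0.40, adjusted p = 0.00245). Cp (3.44), the copper-carrying ferroxidase ceruloplasmin, and Hp (3.37), haptoglobin, were higher as well, the latter at no more than 12.9 CPM. The lower ones included the membrane mucin Muc4 (-1.98), the potassium channel subunit Kcne3 (-1.77) and Agr2 (-1.67), a disulfide isomerase of mucous cells. The mature club cell gene Scgb1a1 was at 50.1, 34.7 and 16.8 CPM against 47.3, 10.2 and 13.6 CPM and did not pass (0.47, adjusted p = 0.659), nor did Bpifa1 (0.19, adjusted p = 0.698). The Scgb3a2 limit was set on the first group alone and had taken out cells high in Bpifa1 (43000, 52550 and 18610 CPM). Scgb1a1 and Bpifa1 are therefore no fair test of club cell genes here.

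Enzymes that handle foreign compounds were higher in 10 (27.0%, against 11.1% over all genes) and lower in 6 (16.2%, against 8.96%) of 37 tested, with a median of 0.27. Cyp4b1, an airway cytochrome P450, was at 643, 585 and 333 CPM against 97.2, 71.5 and 31.3 CPM (log2 fold change 2.92, SE 0.46, adjusted p = 0.00699). Aldh3a1, an aldehyde dehydrogenase of cornea and stratified epithelium, went the other way, at 86.8, 83.5 and 127 CPM against 519, 612 and 680 CPM (-2.66, SE 0.18, adjusted p = 0.000512). Both separated the groups in every library. The block gave 19 higher and 9 lower enzymes (51.4 and 24.3%, against 21 and 22%). Nqo1 (-1.71), a quinone reductase, and Sult1b1 (-3.03) were also lower. Of 22 retinoid genes 4 were higher (18.2%, against 11.1% over all genes) and 3 lower (13.6%, against 8.96%), or 6 and 6 under the block (27.3% each way, against 21 and 22%), with Aldh1a7 (2.67), a paralogue of the retinaldehyde dehydrogenase Aldh1a1, and the retinol dehydrogenase Dhrs9 (-2.09) at the extremes. Reads of Aldh1a7 and Aldh1a1 could be shared between these near copies, so the split between them is uncertain.

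**Figure D3:**
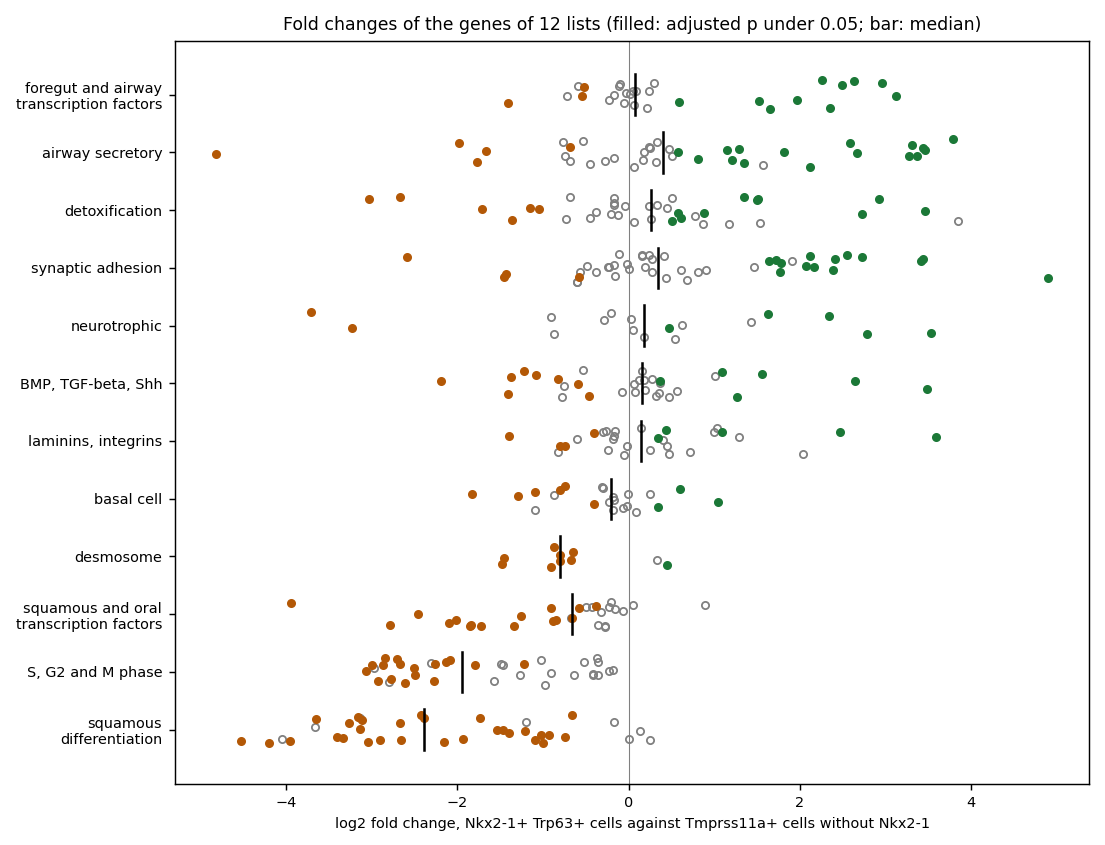
Log2 fold changes of the genes of 12 lists in Nkx2-1+ Trp63+ cells against Tmprss11a+ Trp63+ cells, with 1 point per gene, filled where the adjusted p was under 0.05 (green higher, orange lower), and a bar at each list's median. Squamous differentiation (median -2.39), desmosome (-0.81) and oral and squamous factors (-0.66) lie below 0, and airway secretory genes (0.40) above.

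Neurotrophic ligands and receptors included 5 higher (29.4%, against 11.1% over all genes) and 2 lower (11.8%, against 8.96%) genes of 17 tested, with a median of 0.17. The counts were 7 and 4 under the block (41.2 and 23.5%, against 21 and 22%) and 3 and 2 of 14 without other-type cells. Gfra1, a proposed marker of these cells, was among the genes tested, so the counts are not independent of the label. Beside Gfra1, Sort1, a sorting receptor for neurotrophins, was at 35.5, 28.4 and 26.3 CPM against 8.53, 9.65 and 9.96 CPM (log2 fold change 1.63, SE 0.15, adjusted p = 0.00119). Bdnf, the ligand of TrkB, was at 1.39, 1.42 and 2.48 CPM against 17.9, 22.6 and 28.4 CPM (-3.71, SE 0.28, adjusted p = 0.000625). Ret, the signalling partner of GFRA1, was at 0.566 to 1.10 CPM and Gdnf, its ligand, at 0.212 to 0.242 CPM in Nkx2-1+ Trp63+ cells. Both lay near 0 in these cells.

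Synaptic adhesion genes were higher in 14 (31.8%, against 11.1% over all genes) and lower in 4 (9.09%, against 8.96%) of 44 tested, with a median of 0.35. Under the block 17 were higher and 9 lower (38.6 and 20.5%, against 21 and 22%). Ntng1, a netrin-G anchored in the membrane, was at 40.9, 20.2 and 41.1 CPM against 5.15, 1.17 and 2.87 CPM (log2 fold change 3.44, SE 0.52, adjusted p = 0.00621). Opcml, of the IgLON family, was lower (-2.58). Of 53 axon guidance genes, 8 were higher (15.1%, against 11.1% over all genes) and 11 lower (20.8%, against 8.96%), with a median of 0.00. Under the block the counts were 18 and 16 (34.0 and 30.2%, against 21 and 22%). Eph receptors lay on both sides, with Epha5 at 2.34 and Epha4 at -2.46. Of 29 laminins and integrins, 5 were higher (17.2%, against 11.1% over all genes) and 4 lower (13.8%, against 8.96%), with 11 and 7 under the block (37.9 and 24.1%, against 21 and 22%). Itgb8, the integrin chain that activates latent TGF-beta, was at 45.6, 38.4 and 31.9 CPM against 5.33, 1.75 and 2.44 CPM (3.58, SE 0.41, adjusted p = 0.00244), whereas the chains of the hemidesmosome integrin, Itga6 (-0.80) and Itgb4 (-0.40), were lower.

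Among growth factor pathways, the EGF and LRIG family had 2 higher (11.8%, against 11.1% over all genes) and 6 lower (35.3%, against 8.96%) genes of 17, with a median of -0.29. Under the block the counts were 3 and 6 (17.6 and 35.3%, against 21 and 22%). Erbb4, a neuregulin receptor, was at 77.0, 61.3 and 43.5 CPM against 15.8, 5.37 and 6.69 CPM (log2 fold change 2.67, SE 0.44, adjusted p = 0.008). The ligands Nrg4 (-2.33) and Hbegf (-1.99) were lower, and Egfr did not pass (-0.02, adjusted p = 0.927). Of 21 FGF genes, 5 were higher (23.8%, against 11.1% over all genes) and 1 lower (4.76%, against 8.96%), led by Fgf1 at 95.2, 91.9 and 84.3 CPM against 21.9, 17.8 and 15.6 CPM (2.25, SE 0.14, adjusted p = 0.000435). Without other-type cells 2 of 12 FGF genes were higher (16.7%).

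BMP, TGF-beta and hedgehog genes had 6 higher (19.4%, against 11.1% over all genes) and 8 lower (25.8%, against 8.96%) members of 31, with 12 and 9 under the block (38.7 and 29.0%, against 21 and 22%). The ligand Bmp5 was at 50.03, 33.5 and 43.0 CPM against 6.16, 2.04 and 2.91 CPM (log2 fold change 3.48, SE 0.40, adjusted p = 0.00246), and Bmp3 was higher too (2.64). Id1, a target gene of BMP signalling, was at 134, 136 and 166 CPM against 333, 349 and 408 CPM (-1.37, SE 0.11, adjusted p = 0.000931), and Id3 fell by 1.22 on the log2 scale. The ligands themselves lay on both sides, as Bmp4 (-0.82) and Bmp7 (-0.58) were lower. Of 47 Wnt genes, 6 were higher (12.8%, against 11.1% over all genes) and 9 lower (19.1%, against 8.96%), with 9 and 21 under the block (19.1 and 44.7%, against 21 and 22% over all genes). Of 23 Notch genes, 2 were higher (8.70%) and 3 lower (13.0%), close to the 11.1 and 8.96% over all genes, with 6 and 3 under the block (26.1 and 13.0%, against 21 and 22%). Notch3 was at 5.48, 4.24 and 7.56 CPM against 22.2, 23.4 and 23.7 CPM (-2.04, SE 0.19, adjusted p = 0.00126), and Notch1 did not pass (-0.10, adjusted p = 0.427).

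In ion transport, 6 genes were higher (22.2%, against 11.1% over all genes) and 10 lower (37.0%, against 8.96%) of 27, with 11 and 13 under the block (40.7 and 48.1%, against 21 and 22%). The median was 0.17, and -0.26 without other-type cells. Kcnma1, the large-conductance calcium-activated potassium channel, was higher (log2 fold change 2.51), while Atp6v0a4 (-4.33), a proton pump subunit, and Car12 (-3.10), a carbonic anhydrase, were lower. Of 20 tight junction genes 3 were higher and 3 lower (15% each way, against 11.1 and 8.96% over all genes), with Cldn10 at 21.6, 24.0 and 30.8 CPM against 5.15, 2.11 and 4.92 CPM (2.59, SE 0.33, adjusted p = 0.00353). Under the block 6 were higher and 7 lower (30 and 35%, against 21 and 22%). Cytokine and antigen presentation genes had 3 higher (11.5%, against 11.1% over all genes) and 5 lower (19.2%, against 8.96%) of 26, and 9 and 9 under the block (34.6% each way, against 21 and 22%). The alarmin Il33 was at 2.42, 0.0707 and 3.33 CPM against 18.8, 12.3 and 30.02 CPM (-3.36, SE 0.73, adjusted p = 0.0205), and Csf1, the macrophage growth factor, was higher (1.92). Of 24 early response genes, 2 were lower (8.33%, against 8.96% over all genes) and none was higher, with 6 lower under the block (25%, against 22% over all genes). Of 14 Hox genes tested 4 were higher (28.6%, against 11.1% over all genes), and 8 under the block (57.1%, against 21%).

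Pax7, the satellite cell factor, was higher in Nkx2-1+ Trp63+ cells, at 13.5, 11.8 and 19.3 CPM against 2.78, 1.68 and 3.32 CPM (log2 fold change 2.46, SE 0.29, adjusted p = 0.00279). Its UMIs were found in 12.3, 12.3 and 14.6% of Nkx2-1+ Trp63+ cells. Without cells that had 3 or more genes of another type the log2 fold change was 3.85 (adjusted p = 0.000551). Satellite cell genes were among those that marked cells for removal. Cells with 3 or more of them held 76.5, 84.8 and 76.6% of that list's UMIs in Tmprss11a+ Trp63+ cells, against 28.1, 46.3 and 42.3% in Nkx2-1+ Trp63+ cells. The larger fold was set in part by the removal and is no test. Of the Nkx2-1+ Trp63+ cells with a Pax7 UMI, 91.6, 96.1 and 97.3% had Krt5, against 82.4, 83.5 and 96.3% of those without. The satellite cell gene Chodl was found in 2.58, 4.85 and 7.80% of the cells with Pax7 and 1.18, 0.681 and 1.10% of those without, and Myf5, Des and Musk were also more frequent with Pax7 in every library. The cells with Pax7 were deeper (medians of 15830, 18329 and 14478 UMIs against 13244, 16374 and 12174), and 10.97, 6.80 and 16.7% of them resembled doublets, against 6.99, 3.54 and 10.4%. The part of depth and doublets in these shares was not tested.

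A further 5892 Trp63+ cells (966, 884 and 4042) had UMIs of both Nkx2-1 and Tmprss11a. Gfra1 was at 269, 205 and 156 CPM in them, below the Nkx2-1+ Trp63+ cells and above the Tmprss11a+ Trp63+ cells of each library. The mean level of these cells lay between the other groups for 1626 of the 1837 higher genes (88.5%) and 1420 of the 1489 lower genes (95.4%). Krt14 was an exception in library 2, at 858 CPM against 366 and 618 CPM. Barcodes resembling doublets made up 14.9, 8.37 and 22.4% of these cells, above the share in either other group of the same library, and their part in the intermediate levels was not tested.

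The second comparison set the Nkx2-1+ Trp63+ cells below the Scgb3a2 limit against 654 cells (142, 61 and 451) that met the same rule but lay at or above it. Of 14323 genes tested, 171 (1.19%) were higher below the limit and 194 (1.35%) were lower, and the block gave 942 (6.58%) and 835 (5.83%). The count fell to 13 without library 1 and 10 without library 2, and to 1036 and 1099 with the block. Markers of other types moved with the limit as well. Of 8 ciliated genes, 4 were higher below it (50%, against 1.19% over all genes), and 8 under the block. Under the block 6 of 7 fibroblast genes and 5 of 6 thyroid genes were also higher (85.7 and 83.3%, against 6.58%). The part of these markers in the other differences was not tested. Of 22 basal cell genes, 6 were higher below the limit (27.3%, against 1.19% over all genes) and none lower (median 0.37). Under the block the counts were 12 and 2 (54.5 and 9.09%, against 6.58 and 5.83%). Dlk2, a Notch-pathway ligand homologue of basal cells, was at 169, 164 and 140 CPM below the limit against 48.0, 18.0 and 23.4 CPM above it (log2 fold change 2.30, SE 0.30, adjusted p = 0.0118). Krt14 was at 373, 366 and 434 CPM against 188, 106 and 140 CPM (1.32, SE 0.19, adjusted p = 0.0148), and Snai2, an epithelial-mesenchymal transition factor, was higher as well (0.99). The groups did not overlap in any of these genes. Krt15 went the other way in each library, at 1932, 1841 and 4100 CPM below the limit against 3498, 4057 and 6000 CPM above it, with an adjusted p of 0.166 without the block and 8.06e-05 with it. Several genes raised against Tmprss11a+ Trp63+ cells did not pass here, among them Cadm2 (-0.42, adjusted p = 0.468), Irx1 (0.02), Irx2 (-0.08), Gata6 (0.14), Fgf1 (0.10) and Bmp5 (-0.30). Others were higher below the limit, such as Bmp3 (1.41). Gfra1 was higher in each library (1.13, adjusted p = 0.0535 without the block and 0.00013 with it).

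Of 37 airway secretory genes, 14 were lower below the limit (37.8%, against 1.35% over all genes) and Tff2 alone was higher (2.70%, against 1.19%). Under the block 24 were lower and 2 higher (64.9 and 5.41%, against 5.83 and 6.58%). Scgb3a2 chose the groups, so secretory genes expressed with it follow the choice in part. Scgb1a1 was at 50.1, 34.7 and 16.8 CPM against 1058, 3047 and 109 CPM (log2 fold change -5.51, SE 1.09, adjusted p = 0.0438). Bpifa1, a secreted antimicrobial lipid-binding protein, was lower too (-3.52, SE 0.44, adjusted p = 0.0108). All 3 calls among 5 simple keratins were lower (60%, against 1.35% over all genes), and all 5 under the block (100%, against 5.83%). Krt19 was at 465, 450 and 584 CPM against 848, 981 and 1102 CPM (-1.07, SE 0.13, adjusted p = 0.0102). Krt8 (-0.86) and Krt23 (-1.83) were the others.

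Of 21 Notch genes, 4 were higher and 4 lower (19.0% each way, against 1.19 and 1.35% over all genes). Under the block 4 were higher and 5 lower (19.0 and 23.8%, against 6.58 and 5.83%). The modifier Lfng (1.85) and the ligand Dll1 (1.48) were higher below the limit, and the receptor Notch3 (-2.17) with the target genes Hey1 (-1.56) and Hes1 (-1.14) lower. Hes1 was at 253, 251 and 290 CPM against 495, 594 and 536 CPM (SE 0.12, adjusted p = 0.00776). Sox9 was at 32.2, 25.2 and 26.7 CPM below the limit and 5.46, 0 and 2.38 CPM above it (log2 fold change 3.24, adjusted p = 0.0132). The 6 largest rises were Tg (8.30), Prlr, Kcnma1 (3.70), Sntn, Lsamp and Enpp2 (3.36), of which Tg, Prlr, Sntn and Lsamp were not called or not tested once cells with 3 or more genes of another type were left out. The 6 largest falls were Scgb1a1, Bpifa1, Pon1 (-3.36), Cyp4f15 (-2.95), Wfdc1 (-2.87) and Spink5 (-2.64).

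**Figure D4:**
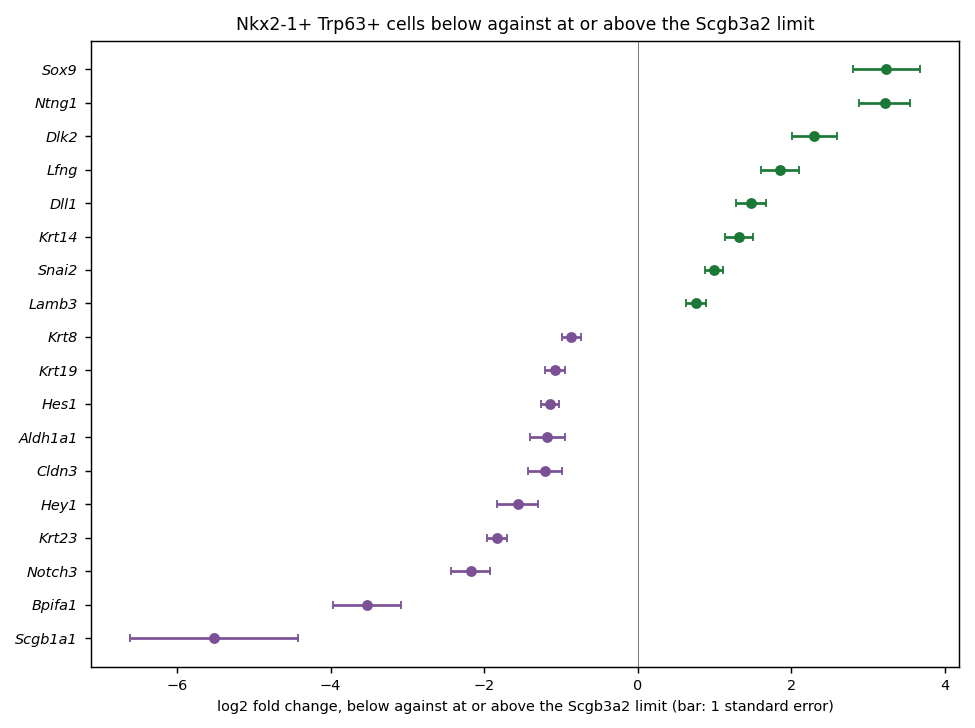
Log2 fold change of 18 genes between Nkx2-1+ Trp63+ cells below and above the Scgb3a2 limit, with bars of 1 SE; green genes are higher below the limit and purple genes lower. The basal genes Dlk2 (2.30) and Krt14 (1.32) lie on one side, and secretory genes such as Scgb1a1 (-5.51) and the Notch target Hes1 (-1.14) on the other.

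Lrig1, the EGF receptor antagonist whose activity labelled the cells, was at 79.5, 82.8 and 89.5 CPM in Nkx2-1+ Trp63+ cells and 92.7, 102 and 103 CPM in Tmprss11a+ Trp63+ cells. All libraries of the first group lay below those of the second, by a log2 fold change of -0.29 (SE 0.08, adjusted p = 0.0381). A Lrig1 UMI was found in 55.4, 63.2 and 56.5% of Nkx2-1+ Trp63+ cells (58.4 ± 4.20%, SD, n = 3) and in 66.8 ± 5.72% of Tmprss11a+ Trp63+ cells (SD, n = 3). Thinned to 5000 UMIs the shares were 31.4, 31.1 and 32.3% against 33.8, 36.1 and 36.7%. The difference of -3.95 percentage points, lower in 3 of 3 libraries, had a two-sided exact permutation p of 0.1, the smallest that 3 against 3 libraries allow, and without thinning the difference was -8.45 points (exact permutation p = 0.2). This test exchanged all 6 values and did not use that both groups of a library share 1 pool. In the cells that should lack Nkx2-1 the thinned share was 16.2, 32.5 and 23.2%, but these were sorted on Lrig1 activity too, so no cell type here gives the background of Lrig1.

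The third comparison split the Nkx2-1+ Trp63+ cells into those with and without a Lrig1 UMI. Of 14518 genes tested, 0 (0%) passed edgeR's test, and 185 had an unadjusted p under 0.05, or 1471 with the block. The test without the block did not use that both sums of a library share 1 pool. Its 0 calls therefore do not show that the cells were alike. With the block Acta2, the smooth muscle actin, passed (log2 fold change -3.80, adjusted p = 0.012), at 0.456, 0.310 and 3.605 CPM in Lrig1+ and 9.91, 1.35 and 50.1 CPM in Lrig1- cells. No gene passed with the block once doublet-like barcodes were left out (smallest adjusted p = 0.0691). In library 3, 3 of the 2555 cells held 76.8% of the UMIs of the pericyte and smooth muscle marker list. DESeq2 called 3 genes, Krt14 (-0.85), the surface antigen Ly6a (-0.49) and the G protein subunit Gna14 (0.45). Krt14 was at 244, 328 and 339 CPM in Lrig1+ and 595, 448 and 606 CPM in Lrig1- cells, and the libraries did not overlap. A UMI of Lrig1 is found more readily in deeper cells, and the call of Lrig1 after thinning to 5000 UMIs gave 0 genes without and 168 with the block.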

How the data were processed

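Counts of UMIs per gene and barcode were deposited by the authors as whole numbers without normalization, made with Cell Ranger 8.0.1 on mm39 per the submitters' processing notes. Genes were matched by Ensembl identifier to a GRCm39 annotation (33185 of 33696). Cells were chosen as given above, and counts were summed per library and group. Sums were tested with edgeR 4.0.16 in R 4.3.3 (TMM, filterByExpr, glmQLFit, glmQLFTest, no covariates, two-sided, Benjamini-Hochberg over all genes tested), leaving out rule genes and, in the third comparison, Lrig1. SE is the absolute log2 fold change divided by the square root of F. CPM is summed counts per 1000000 UMIs of that sum. P-values without the block treated the sums as independent and measure the spread between pools within each group of cells. Those with the block measure how the difference between the groups varied from pool to pool.

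Each library's sums share 1 pool of animals (the labels number the pools), and their deviations from the group means correlated by 0.471, 0.591 and 0.668 in the first comparison, 0.290, 0.385 and 0.386 in the second and 0.484, 0.435 and 0.744 in the third. The library was therefore also fitted as a replicate block. Doublets were scored by simulated neighbours at 0.4% per 1000 barcodes and left in, except in an alternative.

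Named genes were those past the threshold with at least 10 CPM in the higher group and 1 direction in all libraries, the 12 (first comparison) or 6 (others) largest each way, and up to 3 each way from each of 37 lists, beside the genes that define a list. Predicted genes were not named (277 of the calls in the first comparison). Further genes that met the rule are counted but not reported here. The members and lists were chosen with earlier results of these data known. Scripts were tested on simulated data. DESeq2 1.42.0, other size factors, filters, thinning and limits were alternatives.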

Additional observations from a re-analysis of the deposited data

How the results depend on the processing

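In the first comparison the count of 3326 genes became 7148 with the replicate block, 2115 and 1671 with cells thinned to 5000 UMIs after or before they were chosen, and 514 to 2361 without 1 library. With the block it was 5366, 5983 and 5438 without library 1, 2 or 3, 7299 without doublet-like barcodes, 5354 after thinning and 6211 without other-type cells. Of the 3326 genes, 3295 were also called by DESeq2 (4299 in all), and 35 had the opposite sign without other-type cells. The 365 genes of the Scgb3a2 comparison became 1777 with the block, 900 without the filter on low counts, 867 with DESeq2, 572 without doublet-like barcodes, 240 after thinning and 10 to 392 without 1 library. With the block they were 1036, 1099 and 2453 without library 1, 2 or 3, 1904 without doublet-like barcodes and 1017 after thinning. The 0 genes of the Lrig1 split stayed at 0 without any 1 library, and became 1 with the block, 3 with DESeq2, and with the block 2, 357 and 1 without library 1, 2 or 3, 18 after thinning and 168 with Lrig1 read after thinning. The share of Trp63+ cells, 17.8%, became 10.4% with at least 2 Nkx2-1 UMIs and 15.5% with cells thinned before they were chosen, and was 16.8 to 18.7% without 1 library. The share with a Lrig1 UMI, 58.4%, became 31.6% at 5000 and 14.5% at 2000 UMIs, and was 56.0 to 59.9% without 1 library. Of 3450 values over 189 named genes, 3075 kept their direction and side of the threshold, 373 kept their direction but not the threshold (260 of these without 1 library), and 2 reversed, Tg in the first comparison (-0.30, adjusted p = 0.837) and Tmem212 in the second (-0.21, adjusted p = 0.899), both with cells with 3 genes of another cell type left out, the cells that held most of their UMIs. The causes of the other changes were not tested.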
